A study of Mus musculus with 10 samples.

Results

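The miR-297, miR-466, miR-467 and miR-669 miRNAs of the mouse are the products of a large group of near-identical hairpins, and the probes for them were followed here in mIMCD-3 cells, a mouse epithelial line derived from the inner medullary part of the collecting duct. A probe was a member where any of its mouse miRNA names carried one of these 4 numbers, whatever the letter, copy or strand, which held for 71 of 1040 mouse probes on the array. The choice used names only and no measured value. Aldosterone, the mineralocorticoid hormone that raises sodium reabsorption in the distal nephron, was given at 100 nM to 5 samples, and 5 samples received the ethanol vehicle. All 10 samples were grown to confluence on transwell filters and then kept for 24 h in medium without hormones before treatment. Total RNA from each was labelled with the dye Hy5 and measured on a single-colour miRNA array. All samples are of this 1 line, and the labels do not say whether samples of a group came from separate cultures, so a p-value reflects no more than the scatter among these 10 samples, which may be technical.

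Most of these hairpins lie side by side in an intron of Sfmbt2, an imprinted Polycomb-related gene that in the mouse is expressed mainly from the paternal allele and is needed in the placenta. The cluster arose in rodents by repeated tandem duplication, and its mature miRNAs are low in complexity, with one strand rich in U and G and the other rich in A and C. In the RefSeq annotation of GRCm38.p6, used here for names and neighbourhood only, 72 of the 82 miRNA genes with these numbers lay within the span of Sfmbt2 on chromosome 2, which held no other miRNA gene. The other 10 lay on 7 other chromosomes. By these names 56 member probes stood for hairpins inside Sfmbt2 only, 8 for hairpins elsewhere only and 5 for both, and 2 matched no gene name.

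By exact name, 7 of the 80 member names matched a mature sequence in the RefSeq set used here (build GRCm38.p6), all from hairpins outside Sfmbt2. That the other names found no match does not show that RefSeq lacks their sequences. The 7 are shown because they display the repeat character that the members share and because the array read them very differently. Capitals mark the seed, bases 2 to 8, which pairs with targets. The strand rich in A and C was represented by 3 of them.
miR-467f (chr11:69635419-69635439, minus strand): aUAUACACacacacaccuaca
miR-466i-3p (chr13:17747552-17747573, plus strand): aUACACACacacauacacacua
miR-467g (chr5:34732872-34732892, minus strand): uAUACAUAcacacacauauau
The strand rich in U and G was represented by the other 4.
miR-466j (chr10:60960802-60960824, plus strand): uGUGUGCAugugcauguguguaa
miR-669n (chr3:115979905-115979924, plus strand): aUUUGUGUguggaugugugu
miR-467h (chr9:115381898-115381919, plus strand): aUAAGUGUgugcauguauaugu
miR-466k (chr3:85467396-85467418, plus strand): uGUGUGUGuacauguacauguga
No 2 of the 7 shared a seed, but they shared long stretches. miR-467f and miR-466i-3p had 13 consecutive bases in common and miR-466j and miR-467h had 11. miR-467f held 12 strictly alternating A and C bases in a row, and miR-466k held 9 alternating U and G bases. The A and C kind and the U and G kind are also partly complementary, by up to 10 consecutive bases between miR-466k and each of the 3 sequences rich in A and C. How far probes with such shared stretches read each other's targets was not tested.

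Each miRNA probe was spotted 2 times. A probe is called detected on an array where both spots passed the authors' threshold, the mean of the blank spots plus 2 SD. Between 275 and 583 mouse probes were detected per array, fewest on vehicle replicate 2 and most on aldosterone replicate 3. Detection at this threshold does not show presence by itself, since 7 of 39 probes for viral miRNAs were detected on all 10 arrays. Among markers of renal epithelium 6 of 10 were detected on all arrays, while miR-141 was detected on 1 and miR-200c on 2. Of the markers of other cell types, 0 of 6 for blood cells, 0 of 6 for endothelium and fibroblasts, 0 of 6 for embryonic stem cells and trophoblast and 0 of 2 for liver and islet were detected on all arrays, as were 1 of 5 for muscle (miR-206) and 1 of 4 for neurons (miR-128). Some markers were detected on at least 5 arrays but not all. These were miR-126-3p on 9, miR-9 on 8, miR-150 and miR-290-3p on 5 each, and the renal miR-192 on 9 and miR-204 on 7.

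The first question was which members were detected in the cell line. Of the 71 probes 14 were detected on all 10 arrays, 10 on 9 arrays, 8 on 5 to 8, 19 on 1 to 4 and 20 on none. The share detected on all arrays was 19.7% for the members, 23.7% for the other 969 mouse probes and 17.9% for the viral probes. The share detected on none was 28.2%, 34.7% and 41.0% in the same order. These counts depend on the detection rule. With at least 1 of the 2 spots above the threshold 27 of 71 members, or 38%, were detected on all arrays, against 31.9% of the other mouse probes, and with both spots above the blank mean plus 3 SD 5 of 71, which is 7.04%, against 17.5%. Of the 10 probes detected on 9 arrays, 6 were missed on vehicle replicate 2 alone, the array with the fewest detected probes, and without that array 20 members were detected on all the remaining arrays.

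Counted by the first name of each probe, the 4 numbers differed in how often they were detected. For miR-466, detection on all arrays held for 9 of 26 probes and detection on none for another 9, so that most probes with this number were detected either nearly always or never. For miR-669, 2 of 27 were detected on all arrays, 4 on 9 arrays and 7 on none. Counting also the probe that carries miR-669m-5p as its second name, 3 of 28 probes with a miR-669 name were detected on all arrays. With at least 1 spot above the threshold, 12 of 26 miR-466 and 9 of 27 miR-669 probes were, and at the blank mean plus 3 SD 3 and 2. Of the 13 miR-467 probes 2 were detected on all arrays, and of the 5 miR-297 probes 1 was, with the other 4 detected on 1 to 3 arrays. Of the 8 probes for hairpins outside Sfmbt2 only, 6 were detected on at least 5 arrays, against 22 of 56 for hairpins inside it. Probes share arrays and sequence stretches, so these shares are descriptions and were not tested.

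**Figure D1:**
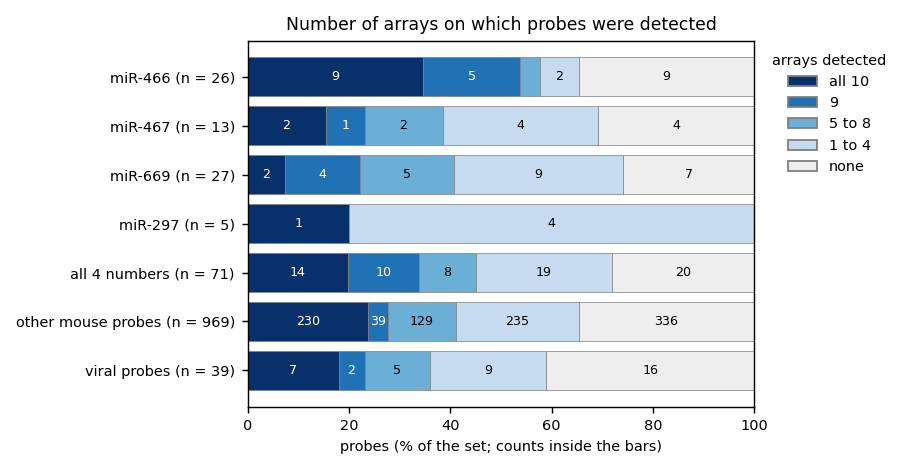
Share of probes (x axis, percent of each set, with counts inside the bars) by the number of arrays on which they were detected (colour), for the 4 miRNA numbers (by the first name of a probe), all 71 members, the other 969 mouse probes and the 39 viral probes. miR-466 has the longest dark segment among the 4 numbers, with 9 of 26 probes detected on all 10 arrays, against 2 of 27 with a miR-669 name first.

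The printed sequences divided in the same uneven way. All 3 sequences rich in A and C were detected on at least 9 arrays. Of the 4 rich in U and G, miR-466j and miR-669n were detected on 9 arrays, miR-467h on 1 and miR-466k on none. miR-466k, the one of the 7 detected on no array, has the longest run of alternating U and G of these 4. Among other mouse probes, 272 matched a RefSeq mature name exactly, and 48 of these (17.6%) were detected on all arrays. The exact match by name makes the 272 a selected part of the 969 other mouse probes, of which 23.7% were detected on all arrays. UGUGUG, present in 1.67% of the 1679 mature sequences of the RefSeq set, was held by 5 of the 272. Of these, miR-574-5p, miR-1187 and miR-3082-5p were detected on all arrays, miR-3097-5p on 1 and miR-291a-3p on none. ACACAC, present in 0.655%, was held by 4 of the 272, of which miR-574-3p and miR-362-3p were detected on all arrays, miR-3100-3p on 4 and miR-568 on 1. The 2 motifs were searched as written, on the RNA strand given, and do not overlap.

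The 2 strands of a hairpin were detected unevenly. In the older nomenclature of the array an asterisk marks the strand held to be the minor one, and other strands are named 5p and 3p. Both strands had a probe for 32 hairpin names, some through a probe shared between names. In the miR-467 group the asterisk strand was detected on more arrays than its partner for 4 of 5 hairpin names and on as many for the other, miR-467e, which was detected on none with either strand. miR-467a* was detected on 10 arrays and miR-467a on 4, miR-467d* on 6 and miR-467d on none, miR-467c* on 5 and miR-467c on 3, and miR-467b* on 2 and miR-467b on none. For each of the 4 names with a difference, the probe for the strand marked as minor was the one detected on more arrays. Different probes read the 2 strands and hybridize with unequal strength, so this does not show which strand was more abundant. With at least 1 spot above the threshold the asterisk strand was on more arrays for 4 names and on fewer for 1, and at 3 SD on more for 3, fewer for 1 and as many for 1. Among the 7 miR-669 names with an asterisk strand it was detected on more arrays for 4, fewer for 2 and as many for 1. The widest gaps were at miR-669k* with 7 arrays and miR-669k with none, and at miR-669c* with 10 and miR-669c with 5.

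In the miR-466 group the 3p strand was detected on more arrays than the 5p strand for 6 of 12 hairpin names, on fewer for 1 and on as many for 5. A probe shared between names was counted for each of them, and here too the strands were read by different probes. Under either other rule it was on more for 7, fewer for 1 and as many for 4. The probe for miR-466a-3p and miR-466e-3p was detected on all 10 arrays, and miR-466a-5p and miR-466e-5p on none. The probe shared by miR-466b-3p, miR-466c-3p and miR-466p-3p was detected on 9, while miR-466p-5p and the probe for miR-466b-5p and miR-466o-5p were detected on none. miR-466c-5p stood out from these 5p strands with detection on 9 arrays. Both strands of miR-466h, which has been linked to apoptosis in hamster ovary cells, and of miR-466m were detected on all 10. Neither strand of miR-466l, known in mouse macrophages for stabilizing Il10 mRNA, nor of miR-466n was detected on any array. The opposite pattern was seen at miR-669m, whose 5p probe, shared with miR-466m-5p, was detected on all 10 arrays and whose 3p probe on none. miR-297a was detected on 10 arrays, and the probe shared by its asterisk strand with miR-297b-3p and miR-297c* on 3.

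**Figure D2:**
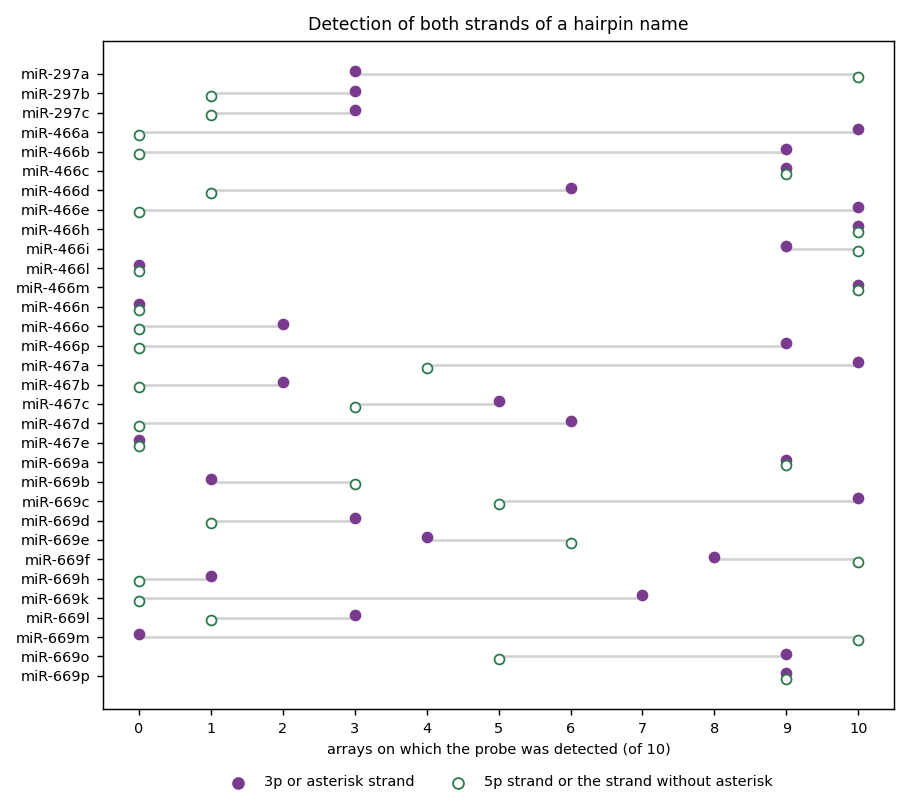
Number of arrays (x axis, of 10) on which the probe for each strand was detected, for the 32 hairpin names with a probe for both. Filled points are the 3p or asterisk strand, and open points are the 5p strand or the strand without an asterisk. For miR-467a to miR-467d, and for miR-466a, miR-466b, miR-466e and miR-466p, the filled point lies to the right of the open one.

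Signals of the detected members were small. Intensities below are quantile-normalized and in units above background. The 20 members detected on no array averaged 2.04 to 3.58 on this scale, which is the level read where no signal was detected. Tested members, those detected on at least 5 arrays, numbered 32, with group means of 4.48 to 29.2. No probe's level is compared with that of another, because probes hybridize with unequal strength.

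miR-466i-5p, from a hairpin on chromosome 13, had 27.0, 27.0, 20.6, 28.1 and 27.5 in aldosterone replicates 1 to 5, against 28.1, 42.9, 24.8, 27.3 and 22.8 in vehicle replicates 1 to 5. The vehicle array of replicate 2 was the highest of all, aldosterone replicate 3 the lowest, and the groups overlapped. miR-466h-3p had 16.3, 13.6, 13.1, 19.3 and 22.8 with aldosterone, against 16.1, 18.1, 14.7, 18.5 and 16.9 with vehicle. miR-466h-5p had 9.62, 12.1, 8.20, 10.1 and 12.7 with aldosterone, against 10.1, 10.2, 8.47, 10.3 and 10.6 with vehicle. For both strands of miR-466h the vehicle values lay inside the range of the aldosterone values, whose highest was replicate 5. miR-669c* had 13.6, 15.8, 11.5, 14.7 and 16.0 with aldosterone, against 13.7, 13.6, 12.6, 13.7 and 13.2 with vehicle, and its vehicle values spread over little more than 1 unit inside the range of the aldosterone values.

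For miR-466f the array carried 3 probes, all detected throughout. miR-466f-5p had 11.0, 10.8, 8.93, 11.5 and 12.8 with aldosterone, against 10.7, 9.16, 9.85, 14.4 and 12.6 with vehicle. miR-466f-3p had 10.6, 11.1, 8.88, 11.8 and 12.0 with aldosterone, against 8.27, 12.8, 7.64, 10.3 and 10.3 with vehicle. The probe named miR-466f without a strand had 9.72, 11.7, 9.18, 14.2 and 10.6 with aldosterone, against 13.4, 10.1, 9.62, 9.06 and 11.1 with vehicle. In each of the 3 the groups overlapped over most of their range. miR-669f-5p had 11.4, 8.11, 8.51, 10.8 and 11.8 with aldosterone, against 9.81, 17.1, 10.9, 10.4 and 11.7 with vehicle. Vehicle replicate 2 lay above all 9 other arrays for that probe, as it did for miR-466i-5p.

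The groups also overlapped in the dimmer members detected throughout. miR-297a had 6.57, 9.01, 6.49, 6.72 and 7.53 with aldosterone, against 5.72, 7.97, 5.99, 8.42 and 7.34 with vehicle. The probe for miR-466a-3p and miR-466e-3p had 6.08, 7.88, 6.01, 8.20 and 8.16 with aldosterone, against 6.44, 6.83, 7.02, 7.75 and 9.16 with vehicle. miR-467a* had 5.80, 7.32, 6.14, 8.69 and 6.92 with aldosterone, against 7.32, 6.70, 6.07, 7.41 and 6.30 with vehicle. In none of these did the groups separate. miR-467f had 9.24, 9.75, 7.94, 8.88 and 8.51 with aldosterone, against 9.16, 9.72, 7.47, 6.43 and 6.87 with vehicle. It was higher with aldosterone in all 5 same-numbered pairs, although vehicle replicate 2 lay above 4 of the aldosterone arrays.

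**Figure D3:**
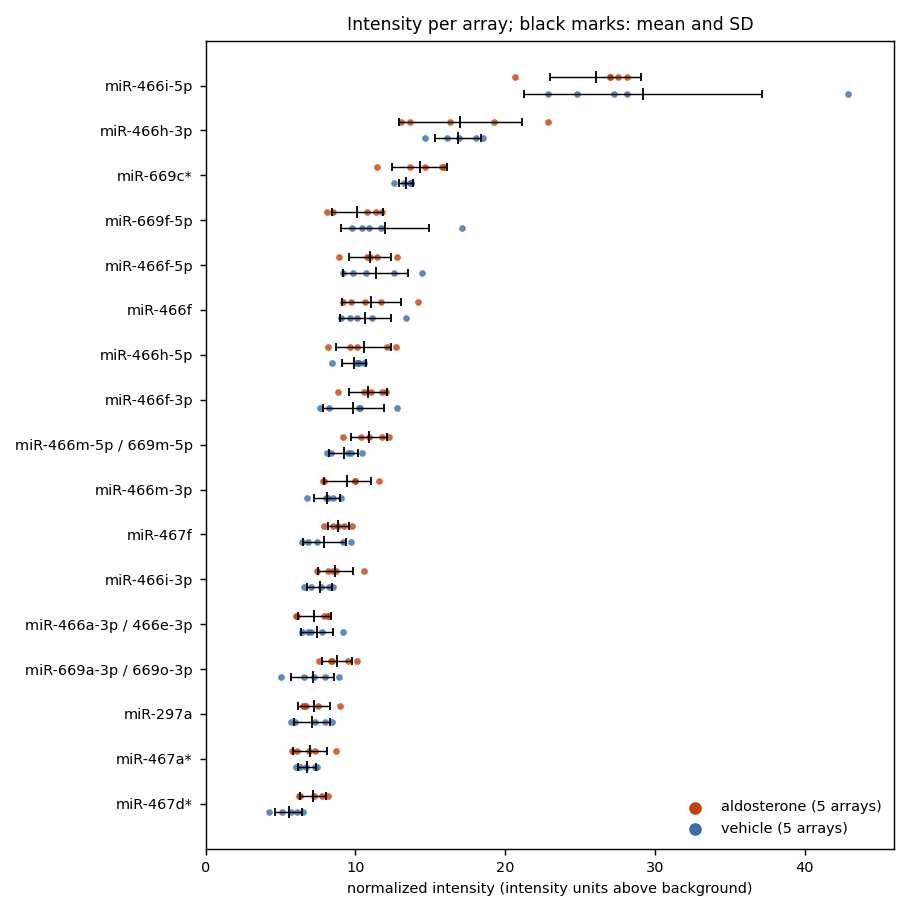
Normalized intensity (x axis, intensity units above background) on each array for the 14 members detected on all 10 arrays and the 3 further ones with small p-values, aldosterone points above vehicle points, with black marks for the mean and SD of 5 arrays. The groups overlap in every member, and the single high vehicle points at miR-466i-5p (42.9) and miR-669f-5p (17.1) belong to replicate 2.

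The second question was whether aldosterone altered these miRNAs. No member passed the threshold in either direction (limma's moderated test with Benjamini-Hochberg adjustment over all 430 tested mouse probes, adjusted p under 0.05, smallest adjusted p over all probes 0.937), and neither did any other probe, so that the share called was 0% among all tested probes. At an unadjusted p under 0.05 were 2 of the 32 tested members, against 1.86% of all tested probes. They were the probe for miR-466m-5p and miR-669m-5p, and miR-467d*, which met the filter for testing mainly through aldosterone arrays. Of the members 21 were on the higher side and 11 on the lower, against 52.6% of all tested probes on the higher side. The median log2 change of the members was 0.0064, beside 0.0019 over all tested probes, and single changes ran from -0.063 to 0.041. These directions rest on the scaling: under 75th percentile scaling 0 of 32 members were higher and the median was -0.31, with 13.3% of all tested probes on the higher side, and without normalization between arrays 29 of 32 were higher, where 96.0% of all were.

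The 5 members with the smallest unadjusted p were all on the higher side. miR-467d* had 7.81, 8.20, 6.25, 7.27 and 6.30 in aldosterone replicates 1 to 5, against 4.27, 6.13, 5.11, 5.72 and 6.54 in vehicle replicates 1 to 5. It was detected on 5 aldosterone arrays and 1 vehicle array. It thus met the filter for testing mainly through the group where it was higher, and its small p is no support for a change. It averaged 7.17 ± 0.877 with aldosterone and 5.55 ± 0.891 with vehicle (SD, n = 5 each), a log2 change of 0.041 (SE 0.016). Vehicle replicate 5 alone reached into the range of the aldosterone arrays, above replicates 3 and 5 of that group. The probe for miR-466m-5p and miR-669m-5p had 10.4, 11.8, 9.16, 10.9 and 12.2 with aldosterone, against 9.72, 10.4, 9.48, 8.14 and 8.39 with vehicle. It averaged 10.9 ± 1.21 with aldosterone and 9.23 ± 0.958 with vehicle (SD, n = 5 each), a log2 change of 0.040 (SE 0.018), and was higher in 4 of 5 pairs. Its other strand miR-466m-3p had 10.0, 7.94, 7.85, 10.0 and 11.6 with aldosterone, against 9.06, 8.16, 8.03, 8.51 and 6.76 with vehicle, with a log2 change of 0.033 (SE 0.020), and was higher in 3 of 5 pairs.

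The probe for miR-669a-3p and miR-669o-3p had 8.42, 9.48, 7.60, 8.39 and 10.1 with aldosterone, against 5.07, 8.93, 7.21, 6.57 and 7.97 with vehicle. It was higher in all 5 pairs and averaged 8.80 ± 0.992 with aldosterone and 7.15 ± 1.46 with vehicle (SD, n = 5 each), a log2 change of 0.041 (SE 0.020), while vehicle replicate 2 lay above 3 of the 5 aldosterone arrays. miR-466i-3p had 8.73, 8.16, 7.41, 8.51 and 10.6 with aldosterone, against 6.56, 8.51, 7.05, 8.27 and 7.72 with vehicle, with a log2 change of 0.026 (SE 0.017). All 5 of these probes had an adjusted p of 0.937 by limma. In all 5 pairs 2 of the tested members were higher, miR-467f and the miR-669a-3p probe, against 3.49% of all tested probes, and 0 were lower, against 2.79%. With untested members included, miR-669a-3-3p and the probe led by miR-297a* were also higher in all 5 pairs, giving 4 of 71, against 3.65% of all 1040 mouse probes. Among tested probes the groups overlapped for all 32 members and all 430 probes (0% not overlapping in either direction). Over all 71 members, tested or not, the groups did not overlap for 1, the miR-297a*, miR-297b-3p and miR-297c* probe, which was higher with aldosterone and detected on 3 arrays, against 0.288% of all 1040 mouse probes. With the replicate number as a block the only member at an unadjusted p under 0.05 was the miR-669a-3p probe, against 4.65% of all tested probes. Its adjusted p was 0.736 in that limma model, fitted across all 430 probes.

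On the lower side the widest change was that of the probe for miR-669a-5p and miR-669p, named after its values were seen. It had 4.78, 6.47, 5.60, 5.51 and 7.41 with aldosterone, against 5.89, 22.4, 5.31, 3.91 and 6.46 with vehicle, and the log2 change of -0.063 (SE 0.074) came with 1 vehicle array, replicate 2, far above the other 9. miR-466i-5p averaged 26.0 ± 3.06 with aldosterone and 29.2 ± 7.94 with vehicle (SD, n = 5 each), a log2 change of -0.054 (SE 0.063). Without vehicle replicate 2 that change was 0.0049, on the higher side. miR-669f-5p averaged 10.1 ± 1.70 with aldosterone and 12.0 ± 2.95 with vehicle (SD, n = 5 each), a log2 change of -0.044 (SE 0.034), which was -0.0024 without replicate 2 in both groups. miR-466g, which in mouse cortical collecting duct cells has been reported to target the aldosterone-induced kinase gene Sgk1, had 6.44, 7.24, 5.69, 6.63 and 8.88 with aldosterone, against 5.80, 6.25, 5.78, 8.47 and 7.41 with vehicle. Its log2 change was 0.0059 (SE 0.019), and the groups overlapped over most of their range.

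None of the remaining members detected on all arrays passed the test. The log2 change was 0.024 (SE 0.025) for miR-466f-3p, 0.023 (SE 0.018) for miR-467f and 0.020 (SE 0.020) for miR-669c*. It was 0.015 (SE 0.022) for miR-466h-5p, 0.0097 (SE 0.027) for the miR-466f probe and 0.0017 (SE 0.040) for miR-466h-3p. All 6 intervals lay between the steps of a halving and a doubling of the vehicle intensity under quantile normalization. The log2 change was 0.0053 (SE 0.016) for miR-467a* and 0.0045 (SE 0.019) for miR-297a, and -0.0044 (SE 0.018) for miR-466a-3p with miR-466e-3p and -0.0079 (SE 0.026) for miR-466f-5p. Outside the members, the UG-repeat miRNAs miR-574-5p, miR-1187 and miR-3082-5p and the other strand miR-574-3p, a list of 4, had 0 past the threshold. The intensity of miR-574-5p averaged 18.3 ± 2.82 with aldosterone and 17.8 ± 3.11 with vehicle (SD, n = 5 each). That of miR-1187 averaged 11.1 ± 1.42 with aldosterone and 11.3 ± 1.15 with vehicle.

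The intervals were set against the step that a halving or doubling would give. Because 50 intensity units are added before the logarithm, a doubling of a dim probe is a small step on this scale: for miR-467d* it would be a log2 change of 0.14, and its 95% interval was 0.0059 to 0.077. For miR-466i-5p a doubling would be 0.45, a halving -0.29, and the interval was -0.20 to 0.088. The interval lay between a halving and a doubling of the mean vehicle intensity for 31 of 32 tested members under quantile normalization, for 31 under cyclic loess and for 32 without normalization between arrays. Under 75th percentile scaling it did so for 0 of 32, with a median half-width of 0.62 against 0.044, and the change itself lay past a halving for 31. That scaling shifts all log2 values of an array by the same amount, the added 50 units included. The steps of a halving and a doubling therefore do not apply to it, and it cannot show whether an intensity was halved. The change in normalized intensity is bounded here only under the first 3 scalings, and the bound does not carry over to the miRNA itself. Under quantile normalization the exception was the miR-669a-5p and miR-669p probe, whose interval of -0.23 to 0.10 reached past a halving (-0.11). The comparison concerns the normalized intensity. Members without signal still read 2.04 to 3.58 units, so a doubling of the miRNA itself would raise the intensity of a dim probe by less than 2 times. A halving would likewise lower it by less than a halving of the intensity. How many intervals lie inside those smaller steps was not tested.

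**Figure D4:**
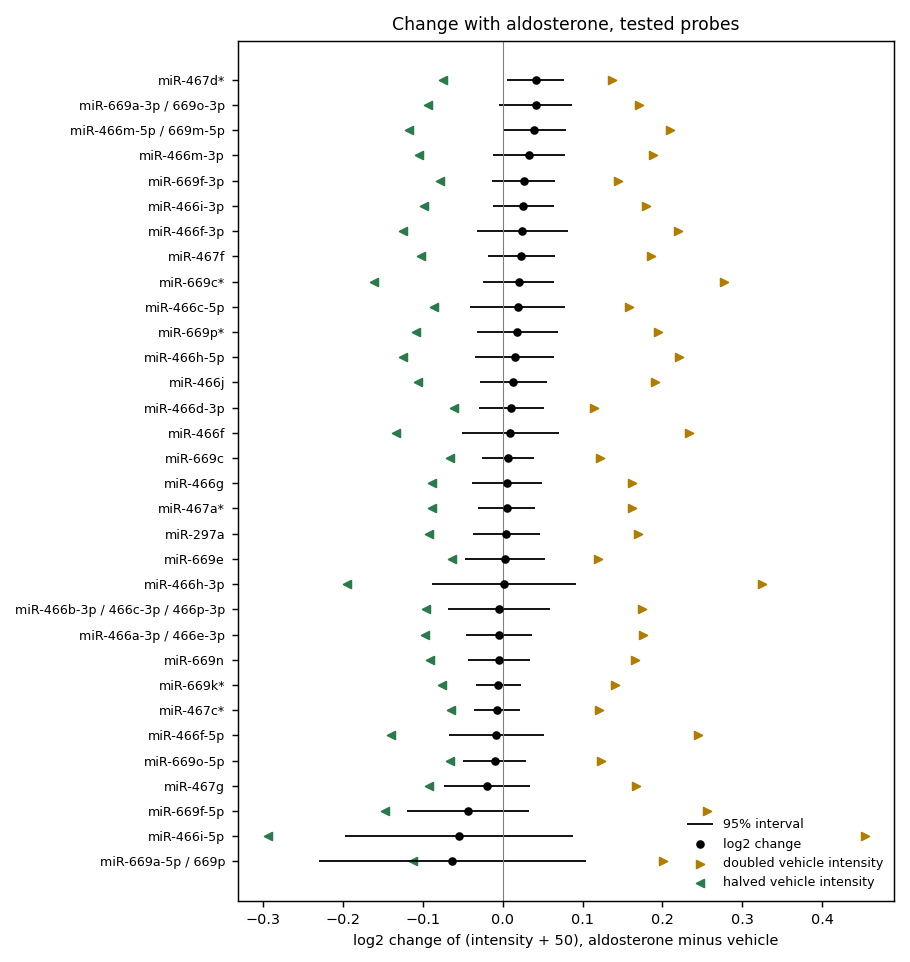
Log2 change of intensity plus 50 (x axis, aldosterone minus vehicle) with its 95% interval for the 32 tested members, sorted by size, with arrowheads where a doubled or halved mean vehicle intensity would lie. Under quantile normalization the intervals of 31 members end inside their arrowheads, and that of the miR-669a-5p and miR-669p probe passes the halving mark.

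The number of detected members was set beside the number of all detected mouse probes. Aldosterone replicates 1 to 5 had 36, 36, 42, 32 and 30 detected members, against 28, 18, 35, 25 and 36 on the vehicle arrays. The mean was 35.2 ± 4.60 with aldosterone and 28.4 ± 7.44 with vehicle (SD, n = 5 each), a difference of 6.8, with more members in 4 of 5 pairs. All mouse probes together gave 461 ± 78.4 with aldosterone and 392 ± 84.3 with vehicle, also more in 4 of 5 pairs. Set against that total, members made up 7.78%, 8.87%, 7.20%, 6.79% and 7.89% of detected probes on the aldosterone arrays and 6.90%, 6.55%, 7.07%, 7.20% and 8.26% on the vehicle arrays, ranges that overlap. The total was higher with aldosterone in the same 4 pairs as the count of members, and the part of overall array brightness in the difference was not tested. Of the 19 members detected on 1 to 4 arrays, miR-467c and the miR-297a*, miR-297b-3p and miR-297c* probe were seen on 3 aldosterone and 0 vehicle arrays, miR-467b* on 2 aldosterone and 0 vehicle arrays, and miR-466o-3p on 0 aldosterone and 2 vehicle arrays. Detection on at least 2 aldosterone arrays and 0 vehicle arrays thus held for 3 of 71 members, against 3.37% of all mouse probes, and the opposite for 1 of 71, against 0.577%.

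**Figure D5:**
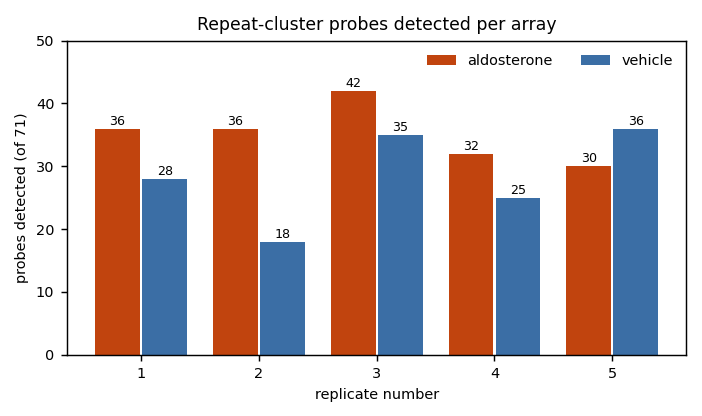
Number of the 71 members detected (y axis) on each array, by replicate number (x axis), with aldosterone bars left of vehicle bars. The aldosterone bar is the taller one at replicates 1 to 4, and the lowest bar of all is vehicle replicate 2 with 18.

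Sample titles of both groups share 5 starting codes, numbered here as replicates 1 to 5. The codes of replicates 1 to 3 end in the letter P and a number, and those of replicates 4 and 5 do not. What a code stands for is not given in the labels. A further test asked which probes differed between codes once treatment was taken into account. In limma's moderated F test 0 of 32 members passed (adjusted p under 0.05, smallest member value 0.324), against 10 of 430 probes, 2.33%. At an unadjusted p under 0.05 there were again 0 members, against 82 of all 430 probes, 19.1%. Each code has 2 arrays, which limits this test, and a p that missed the threshold does not show that the codes were alike. The tested members were dim, with group means of 4.48 to 29.2, and no equally dim probes were set beside them. The part of brightness in the contrast with all probes was not tested. The member with the smallest p, miR-466f-5p, had code means of 10.9, 9.97, 9.39, 13.0 and 12.7 for replicates 1 to 5. miR-466f-3p had code means of 9.41, 11.9, 8.26, 11.1 and 11.1, and miR-466h-5p 9.84, 11.2, 8.33, 10.2 and 11.6. For all 3 the lowest mean was that of replicate 3. The next were the miR-466a-3p and miR-466e-3p probe, with 6.26 to 8.66, and the miR-669a-3p and miR-669o-3p probe, with 6.74 to 9.21.

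Correlations between arrays of a pair were also lower over the members than over all tested probes, and the part of brightness was again not tested. The deviation of each probe from its group mean was compared within each same-numbered pair, which gave r of 0.507, 0.370, 0.814, 0.745 and 0.202 over all 430 tested probes, and r of -0.0029, -0.062, 0.434, 0.137 and -0.175 over the 32 members. These are correlations across probes of the same 2 arrays, given as descriptions. The spread between arrays was also set against that of the duplicate spots. For the members the SD between arrays of a group was 1.39 times the SD expected from duplicate spots in the median, and above 2 times for 9 of 32, while over all tested probes it was 1.79 times and above 2 times for 43.7%. It was below the SD expected from duplicate spots for 7 of 32 members, lowest for miR-669p* at 0.631 times, and for 13.7% of all tested probes. The ratio was highest for miR-466i-5p at 3.45 and next for miR-466h-3p at 2.93. The number of probes that differ between codes depends strongly on scaling. Without normalization between arrays 6 members and 222 of all probes passed, under 75th percentile scaling 32 members and 408 probes, and under cyclic loess 0 members and 50 probes. The 75th percentile scaling shifts all log2 values of an array together, so its calls cannot be told apart from that common shift. The number of calls also depends on single arrays, with 68 probes and 1 member passing without aldosterone replicate 2 and 2 probes and 0 members without aldosterone replicate 3.

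Single arrays held many of the extremes among the members. Aldosterone replicate 3, the array with the most detected probes, had the lowest normalized value of 9 of the 32 tested members (28.1%) and the highest of 0, where over all tested probes it held the lowest value of 10.7% and the highest of 10.9%. Vehicle replicate 2, the array with the fewest detected probes, held the highest value of 8 members (25%) and the lowest of 4, beside 23.5% and 25.8% of all tested probes. Aldosterone replicate 5 held the highest value of 8 members as well (25%), beside 8.84% of all tested probes, and vehicle replicate 4 the lowest of 7 (21.9%), beside 13.7%. For miR-466i-5p the intensity above the blank mean before normalization was 44.9 on aldosterone replicate 3 and 17.0 on vehicle replicate 2. After quantile normalization the order of the 2 arrays was the opposite, with 20.6 on aldosterone replicate 3 and 42.9 on vehicle replicate 2. For the miR-669a-5p and miR-669p probe vehicle replicate 2 was also the highest before normalization, at 9.64 units above the blank mean, with the other 9 arrays at 0.708 to 5.78.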

How the data were processed

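Per the labels, total RNA of 10 mIMCD-3 samples was hybridized to single-colour miRNA arrays; the sources used here name no scanner or software. Each deposited file holds the raw intensity of 3136 spots on 1 array, including 778 blank spots. Per the deposited note, the authors subtracted the blank mean, kept spots above that mean plus 2 SD, averaged duplicates and scaled each array to a median of 25; the deposited series table held the same intensities (6454 values, largest difference 0).

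Here the raw intensity was background-corrected by normexp with an offset of 50, log2 values of duplicate spots were averaged and arrays quantile-normalized (R 4.3.3, limma 3.58.1). The 4 spots flagged in the files were left out. Probes detected on at least 5 of 10 arrays were tested by lmFit and eBayes, two-sided, with Benjamini-Hochberg adjustment over all 430. Named members were those detected on all arrays plus the 5 with the smallest p for treatment and for replicate code. Both fits were tested on simulated data with independent noise, without the correlation of same-numbered arrays. The test of codes recovered moderate planted differences less often than the treatment test. The planted patterns differed between the 2 tests, so these rates are not comparable. The precision is limited by the number of arrays.

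Numbers from title codes pair the samples: same-numbered arrays correlated at r of 0.202 to 0.814, and 9 of 10 matched best with their own number. Members, lists and tests were chosen with earlier results of these data known. Alternatives changed the scaling, offset, filter, block, detection rule and arrays used.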

Additional observations from a re-analysis of the deposited data

Results flagged for a closer look

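In 36 groups of 5 arrays, 4 held an array far from the other 4 (gap to the nearest value over the whole range above Dixon's 95% critical value of 0.71 for 5). Chance gives such a gap in about 1 of 20 independent groups of normally distributed values. The groups here share arrays and normalization, so the 4 of 36 cannot be set against that rate. miR-466i-5p stood out in both groups. Its lowest aldosterone value was 20.6 on replicate 3, where the intensity above the blank mean before normalization was 44.9, the highest of that group. Its highest vehicle value was 42.9 on replicate 2, where the intensity before normalization was 17.0. miR-669f-5p also had its highest vehicle value on replicate 2, at 17.1, with 6.67 before normalization. miR-466h-5p had its lowest vehicle value on replicate 3, at 8.47. The part of quantile normalization in these values was not tested.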

How the results depend on the processing

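No mouse probe was called for aldosterone under any alternative. Of 374 recomputed log2 changes of the 17 named probes, 327 kept their direction, 47 changed it and none crossed the threshold. The replicate block gave 0 calls, 20 probes at an unadjusted p under 0.05, and changed no call. Without normalization between arrays the median member change was 0.038, replicate codes called 222 probes, and the changes of miR-466a-3p with miR-466e-3p (0.023), miR-466f-5p (0.044), miR-466i-5p (0.11) and miR-669f-5p (0.020) turned positive. Under 75th percentile scaling, which moved the median of all tested probes to -0.29, the member median was -0.31, codes called 408, and these turned negative: miR-297a (-0.31), miR-467a* (-0.31), miR-466f-3p (-0.27), miR-466h-5p (-0.29), miR-466f (-0.29), miR-467f (-0.28), miR-466m-5p with miR-669m-5p (-0.27), miR-466m-3p (-0.28), miR-669c* (-0.25), miR-466h-3p (-0.25), miR-467d* (-0.28), miR-669a-3p with miR-669o-3p (-0.27) and miR-466i-3p (-0.28). Cyclic loess gave 50 calls for codes and -0.0046 for miR-466f. An offset of 10 gave a member median of 0.021 and -0.0043 for miR-466h-3p. In the deposited table, where 46 members and 601 probes were tested, the member median was 0.21 beside 0.22 over all, codes called 100 of 336 probes, and miR-466a-3p with miR-466e-3p (0.29), miR-466f-5p (0.31), miR-466i-5p (0.30) and miR-669f-5p (0.080) turned positive. The cause was not tested. Members detected on all 10 arrays numbered 27 with at least 1 spot above the threshold, 5 at the blank mean plus 3 SD and 27 in the deposited table. Leaving out arrays, the calls for codes ran from 2 (without aldosterone replicate 3, and also without vehicle replicate 3) to 68 (without aldosterone replicate 2). The changes that reversed ran from -0.0063 to 0.016 for miR-297a, -0.012 to 0.0063 for miR-466a-3p with miR-466e-3p, -0.0055 to 0.016 for miR-467a*, -0.021 to 0.010 for miR-466f-5p, -0.018 to 0.034 for miR-466f, -0.029 to 0.026 for miR-466h-3p and -0.090 to 0.0049 for miR-466i-5p. With single arrays left out, the count of members detected on every remaining array ran from 14 to 20. With same-numbered pairs also left out in turn, the difference in members detected per array ran from 4 to 10. Those ends came without replicate 2 and without replicate 5 in both groups, in that order. Both checks were chosen after seeing the data, like the other scalings of the halving and doubling comparison and the other detection rules for strands and numbers. Most members lie near background, and 39 of 71 were too rarely detected to test.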
